A study of Mus musculus with 9 samples.

Results

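The genes described here encode the mitochondrial ribosomal proteins, taken as the protein-coding genes of the deposited count table whose symbol is Mrpl or Mrps followed by a number and, in some, a letter. The rule found 78 genes among 56748 in the table, 49 with an Mrpl symbol and 29 with an Mrps symbol. It used names only and no measured value. RNA sequencing had been done on chondrocytes, the cells of cartilage, which were isolated from knee joints of wild-type mice and cultured. There were 3 groups of 3 libraries: cells that received interleukin-1β (IL-1β) plus recombinant SFRP5 (secreted frizzled-related protein 5), cells given IL-1β alone, and control cells. IL-1β is an inflammatory cytokine used to provoke a catabolic state in cartilage cells, and SFRP5 is a secreted protein that binds Wnt ligands. No group received SFRP5 alone, and the labels give no dose or duration. They do not say whether libraries came from separate animals or cultures, so the spread behind the p-values is that of these libraries and may be technical.

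Mitochondria keep a small genome whose messages encode core subunits of the respiratory chain and of ATP synthase, and the mitochondrial ribosome translates these messages inside the organelle. Its RNA comes from the mitochondrial genome, whereas all its proteins are encoded in the nucleus, made in the cytosol and imported. Some of the proteins have bacterial homologues and others are specific to mitochondria, and they are divided between a large subunit, which forms peptide bonds, and a small subunit, which reads the message. Cartilage is poorly supplied with oxygen, and chondrocytes are known for a largely glycolytic metabolism.

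Total counts per library ranged from 15795985 to 20688963. The summed level of 10 chondrocyte markers, in CPM (counts relative to a scaled library size), was 27700 to 29000 with IL-1β and SFRP5, 22000 to 23200 with IL-1β and 108000 to 111000 in control, and none was at 0. The summed level of 10 macrophage markers was 36.7 to 41.8 CPM with IL-1β and SFRP5, 54.4 to 58.9 CPM with IL-1β and 13.8 to 15.1 CPM in control. Of 6 neutrophil markers, S100a9, Ngp and Ly6g were at 0 in every library. The sum of the 6 was 4.83 to 7.22 CPM with IL-1β and SFRP5, 5.83 to 7.21 CPM with IL-1β and 0 to 0.101 CPM in control. The sum of 6 endothelial markers was 2.54 to 3.64 CPM with IL-1β and SFRP5, 3.75 to 4.68 CPM with IL-1β and 0.768 to 1.11 CPM in control. Of 7 lymphocyte markers, 5 were at 0 in every library. The summed level of 5 osteoblast markers was 3.07 to 4.83 CPM with IL-1β and SFRP5, 2.37 to 4.12 CPM with IL-1β and 63.7 to 70.4 CPM in control. That of skeletal muscle markers was 2.34 to 3.94 CPM with IL-1β and SFRP5, 1.82 to 2.22 CPM with IL-1β and 3.76 to 5.61 CPM in control. The other marker sums were at most 0.135 CPM for lymphocytes and 0.101 CPM for erythroid cells in any library. The part of these shifts in the results on ribosomal protein genes was not tested. In such bulk samples, fewer cells of a type and less RNA per cell cannot be told apart.

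Of the 78 genes, 77 had enough counts to be tested. The exception was Mrpl53, a protein of the large subunit, which was listed at 0 in all 9 libraries. A count of 0 allows up to 3 counts, or 0.135 to 0.195 CPM in the single libraries, and covers counting error only. In the table, the span of Mrpl53 lies wholly within that of another protein-coding row on the same strand, Gm42688, which held 102 counts over the 9 libraries. Another 6 pseudogene rows with Mrp symbols fell outside the rule and held 0 to 111 counts each, at most 2.108% of the count of the gene they derive from.

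The mitochondrial ribosomal protein genes together stood at nearly the same level in the 3 groups. Their summed level was 1626, 1664 and 1618 CPM with IL-1β and SFRP5, 1677, 1698 and 1642 CPM with IL-1β, and 1658, 1713 and 1701 CPM in control. The 3 ranges overlapped pairwise. The genes of the large subunit summed to 1161, 1193 and 1142 CPM with IL-1β and SFRP5, 1205, 1211 and 1153 CPM with IL-1β, and 1159, 1198 and 1177 CPM in control. Those of the small subunit summed to 457.9, 464.6 and 470.3 CPM with IL-1β and SFRP5, 465.0, 479.3 and 480.4 CPM with IL-1β, and 489.8, 504.5 and 513.2 CPM in control, so that the control libraries lay above all the others. These levels rest on the TMM scaling between libraries. As a share of the total count without that scaling, the 78 genes held 0.1594% to 0.1619% with IL-1β and SFRP5, 0.1541% to 0.1559% with IL-1β and 0.1817% to 0.1886% in control, and these ranges did not overlap.

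**Figure D1:**
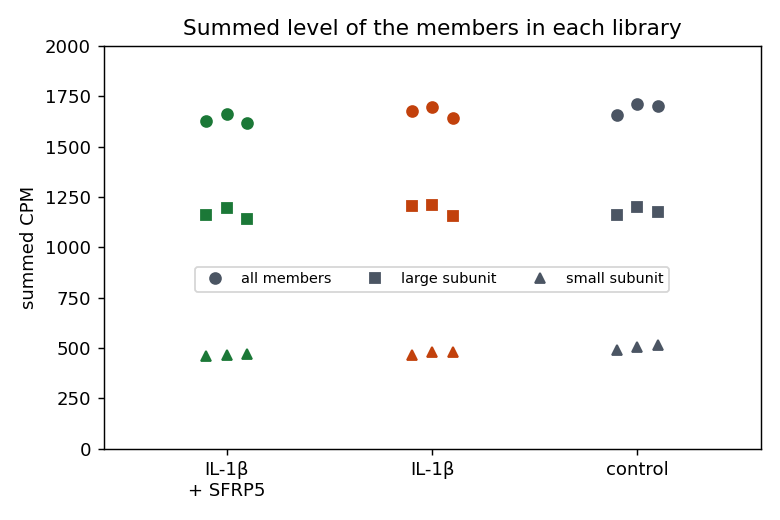
Summed level of the mitochondrial ribosomal protein genes in each library (vertical axis, CPM after TMM scaling) for the 3 groups; circles are all members, squares the large subunit and triangles the small subunit. The sums of all members lie between 1618 and 1713 CPM in the 9 libraries.

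With IL-1β, individual genes moved in both directions. Relative to control, 28 rose, 31 fell and 18 were not called (edgeR's quasi-likelihood test over 15502 genes, 1 fit of the 9 libraries, Benjamini-Hochberg adjusted p under 0.05). That was 76.6% of the tested members, whereas 78.9% of all tested genes were called. Members that rose were 36.4% of those tested, against 38.5% of all genes, and members that fell 40.3%, against 40.4% of all genes, so both shares were close to those of all genes. The members' changes were small beside those of other genes: 7 members were called with a change of at least 2-fold, 9.09% of them (3 higher and 4 lower), against 39.7% of all tested genes (18.4% higher and 21.2% lower) and 30.0% of the 6577 genes whose mean level lay within the members' range. The median size of a member's change, without its sign, was 0.41 on the log2 scale, against 0.75 over all tested genes. The libraries of the 2 groups did not overlap in 57 members (74.0%) and in 80.0% of all genes. The median log2 fold change was -0.12 for the members and -0.03 for all genes. The split of calls depended on scaling: with upper-quartile factors, 20 members rose and 43 fell, and the median of all genes moved to -0.18.

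**Figure D2:**
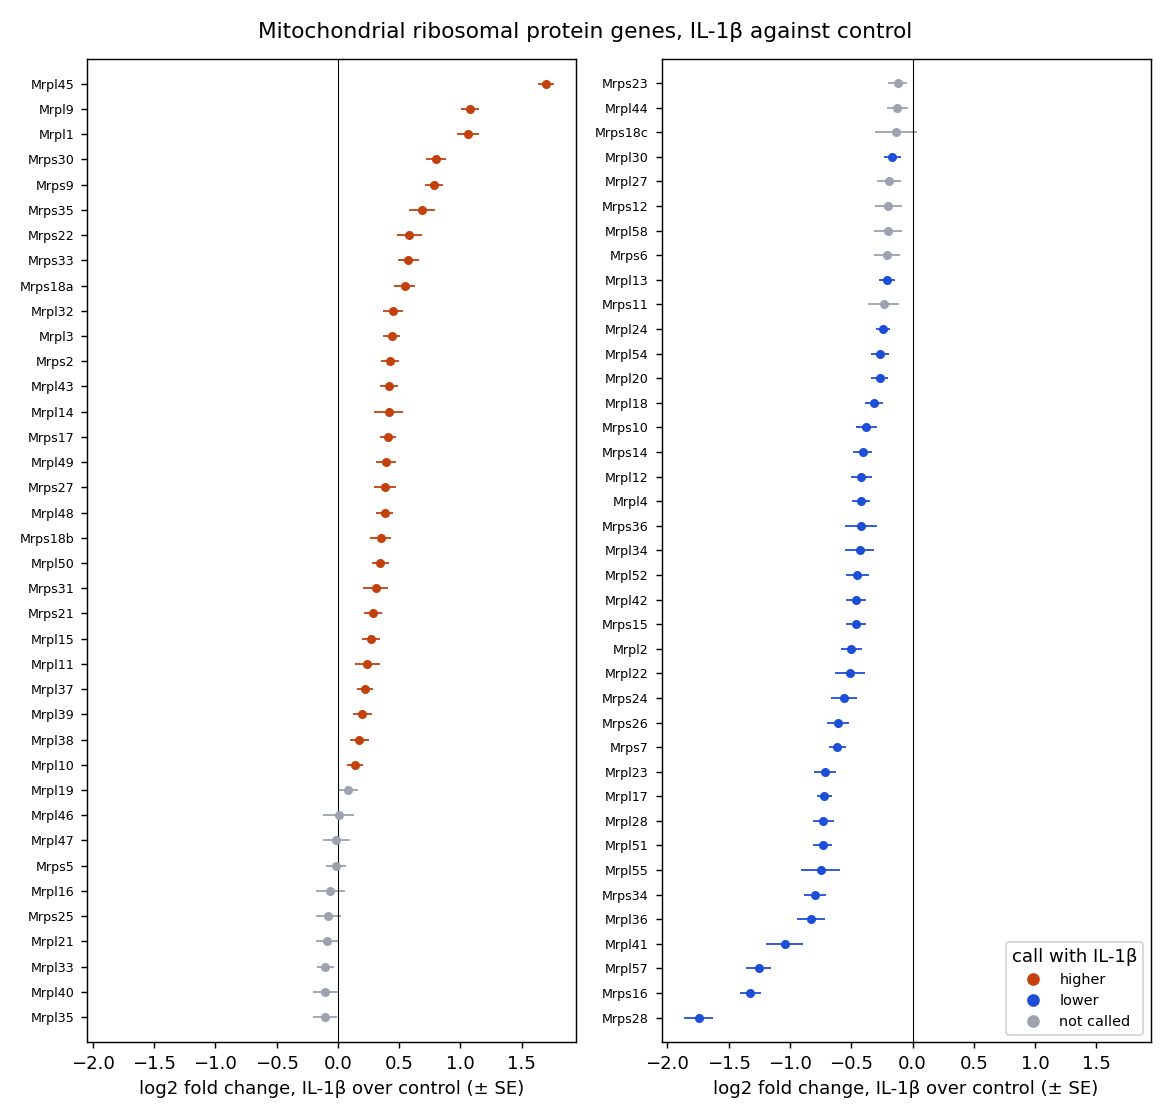
Log2 fold change of the 77 tested members with IL-1β relative to control (horizontal axis, point ± standard error), in order of the change from the top of the left panel to the foot of the right panel; red points rose, blue points fell and grey points were not called. The changes run from 1.70 for Mrpl45 to -1.75 for Mrps28.

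**Figure D3:**
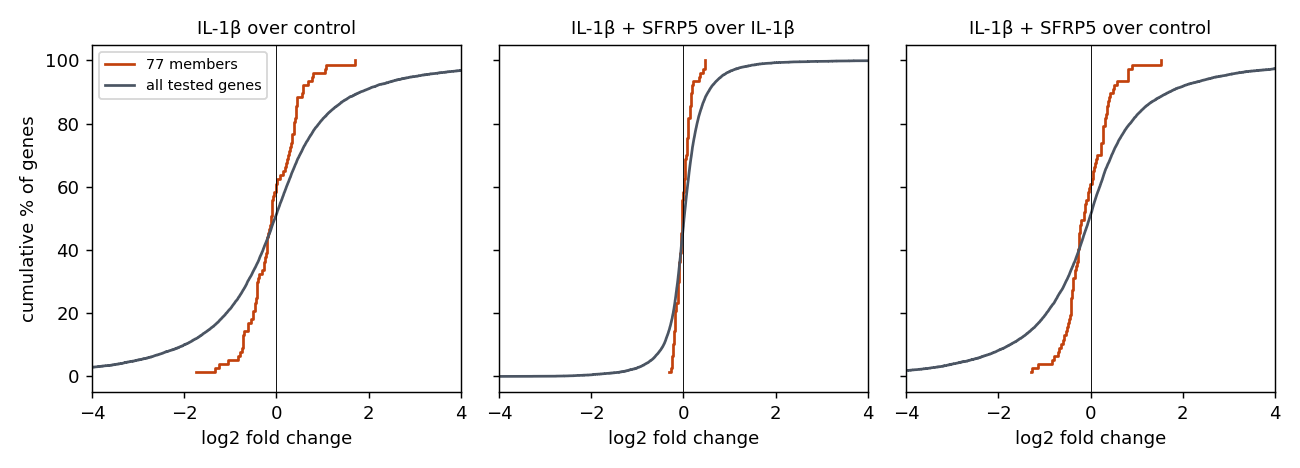
Cumulative share of genes (vertical axis, %) against log2 fold change (horizontal axis, shown between -4 and 4) in the 3 comparisons; the red line is the 77 tested members and the grey line all tested genes. The members' lines are steeper, with a median size of change of 0.41 against 0.75 over all genes for IL-1β relative to control.

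The largest increase was that of Mrpl45 (ENSMUSG00000018882), a mitochondria-specific protein beside the exit of the nascent chain that helps to hold the ribosome at the inner membrane. Mrpl45 had 78.0, 78.4 and 69.9 CPM with IL-1β, against 22.4, 23.1 and 24.2 CPM in control. Every IL-1β library was far above every control library. The change was 3.24-fold (log2 1.70 ± 0.06 SE, adjusted p = 1.79e-18). Mrpl9, a large-subunit protein with a bacterial homologue, had 44.7, 51.8 and 50.2 CPM with IL-1β, against 24.0, 21.1 and 24.3 CPM in control (log2 1.08 ± 0.07 SE, adjusted p = 7.99e-13). Mrpl1, which builds the mobile stalk beside the site where spent tRNA leaves, had 26.1, 21.2 and 24.5 CPM with IL-1β, against 11.8, 11.8 and 10.8 CPM in control (log2 1.06 ± 0.09 SE, adjusted p = 6.75e-11). In both genes the groups lay apart, with the lowest IL-1β library well above the highest control library. Mrps30, which despite its symbol is a protein of the large subunit, had 37.2, 34.8 and 34.4 CPM with IL-1β, against 19.9, 22.7 and 18.3 CPM in control (log2 0.80 ± 0.08 SE, adjusted p = 1.09e-09).

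The largest decrease was that of Mrps28 (ENSMUSG00000040269), a small-subunit protein homologous to part of bacterial S1. Mrps28 had 5.10, 4.24 and 4.90 CPM with IL-1β, against 15.2, 16.3 and 16.4 CPM in control. It was 3.35-fold lower with IL-1β (log2 -1.75 ± 0.12 SE, adjusted p = 9.43e-13), with no overlap of the groups. Mrps16, an early-binding small-subunit protein whose human mutations cause a fatal respiratory chain defect, had 11.9, 11.5 and 10.4 CPM with IL-1β, against 26.9, 28.5 and 28.9 CPM in control (log2 -1.32 ± 0.09 SE, adjusted p = 4.05e-13). Mrpl57, a mitochondria-specific protein of the large subunit, had 9.78, 10.8 and 8.37 CPM with IL-1β, against 20.8, 24.6 and 23.4 CPM in control (log2 -1.25 ± 0.10 SE, adjusted p = 3.17e-11). Every control library was above every IL-1β library in both. Mrpl41, another mitochondria-specific protein of the large subunit, had 6.44, 6.18 and 4.38 CPM with IL-1β, against 10.6, 11.7 and 12.6 CPM in control (log2 -1.04 ± 0.15 SE, adjusted p = 7.17e-07).

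**Figure D4:**
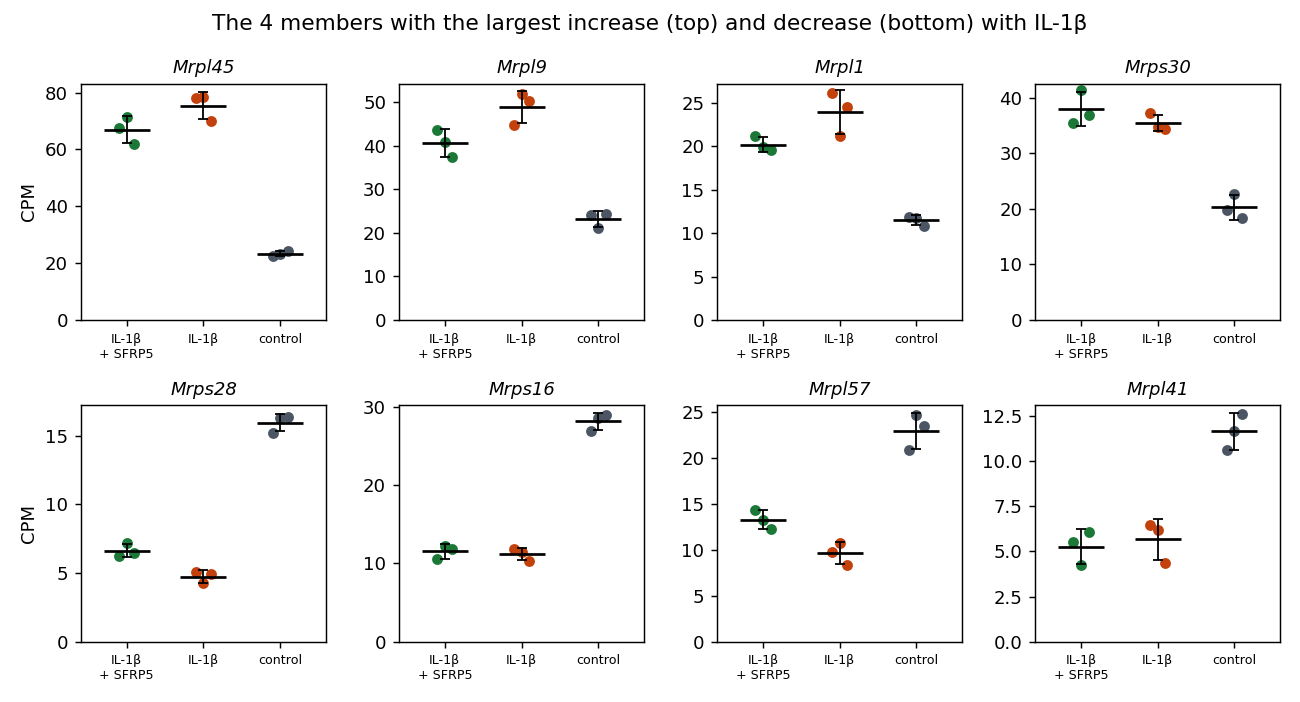
Level in each library (vertical axis, CPM) of the 4 members with the largest increase and the 4 with the largest decrease with IL-1β relative to control, for the 3 groups; points are libraries, the long bar is the mean and the error bar the SD (n = 3). In each panel the IL-1β libraries and the control libraries lie apart, as with 69.9 to 78.4 CPM against 22.4 to 24.2 CPM for Mrpl45.

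Genes of the mitochondrial ribosome are known to be driven in part by nuclear respiratory factor 1 (NRF1) and by ETS factors of the GABP type, so the 250 bases before the annotated start of transcription were searched on both strands, in RefSeq windows on GRCm38.p6 that matched 69 of the 78 members. Mrps28, which had the largest decrease, is not among these 69. The following stretches, free of annotated exons and at most 120 bases long, are shown for the other 6 members called with a change of at least 2-fold with IL-1β, the first 3 of which rose and the last 3 fell, and capitals mark matches to the core NRF1 motif, a GC-rich near-palindrome in which 1 base was left free.
Mrpl45: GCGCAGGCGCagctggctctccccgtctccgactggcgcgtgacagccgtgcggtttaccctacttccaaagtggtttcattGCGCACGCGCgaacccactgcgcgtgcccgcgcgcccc
Mrpl9: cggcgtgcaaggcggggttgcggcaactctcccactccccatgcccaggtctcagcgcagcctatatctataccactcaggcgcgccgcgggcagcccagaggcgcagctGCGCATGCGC
Mrpl1: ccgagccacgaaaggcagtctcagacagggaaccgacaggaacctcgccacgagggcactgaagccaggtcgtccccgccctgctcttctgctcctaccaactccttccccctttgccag
Mrps16: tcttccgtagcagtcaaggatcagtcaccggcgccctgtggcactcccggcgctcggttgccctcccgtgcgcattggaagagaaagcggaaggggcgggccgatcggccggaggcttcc
Mrpl57: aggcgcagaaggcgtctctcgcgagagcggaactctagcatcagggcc
Mrpl41: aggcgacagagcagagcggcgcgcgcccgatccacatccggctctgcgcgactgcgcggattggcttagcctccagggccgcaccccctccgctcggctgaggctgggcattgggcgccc
They lie at chr11:97315596-97315715 on the plus strand for Mrpl45, chr3:94443198-94443317 on the plus strand for Mrpl9, chr5:96209961-96210080 on the plus strand for Mrpl1, chr14:20393635-20393754 on the minus strand for Mrps16, chr14:57826186-57826233 on the plus strand for Mrpl57 and chr2:24975099-24975218 on the minus strand for Mrpl41, and each is written 5′ to 3′ along its gene. The stretch of Mrpl9 ends 19 bases before the start, that of Mrpl1 35 bases and that of Mrpl57 6 bases before it, and the others end at the base before it.

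The printed stretch of Mrpl45 held the NRF1 motif at 2 places, beginning 120 and 38 bases before the start, and that of Mrpl9 at 1 place, beginning 28 bases before it. In Mrpl57 the motif began 57 bases before the start and lay partly in an annotated exon, so that the printed stretch holds it in part and without capitals. In Mrpl1, Mrpl41 and Mrps16 it was not found in the 250 bases. Among the 69 members with a window, 10 (14.5%) held it, against 8.99% of 10360 tested protein-coding genes and 4.23% of all 27025 genes with a window. It was found in 5 of 25 members that rose with IL-1β (20.0%) and 4 of 26 that fell (15.4%). The ETS motif CCGGAAG was found in 18 members (26.1%), against 15.3% of the tested protein-coding genes. It was in 24.0% of the members that rose and 30.8% of those that fell. The E-box CACGTG was found in 7.25% of members and 9.89% of tested protein-coding genes, the YY1 motif ATGGCGGC in 1.45% and 2.18%, and the core NF-κB motif in 0 members and 0.502% of those genes. These shares are descriptions of letters in a window and say nothing of binding.

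By place in the ribosome, the 30 large-subunit proteins with a bacterial homologue included 8 that rose with IL-1β and 15 that fell, with a median log2 fold change of -0.18. Of all tested genes, 38.5% rose and 40.4% fell with IL-1β, which is the background for this class and those below. Differences between the classes, or from all genes, were not tested. With upper-quartile factors 5 of them rose and 19 fell, with a median of -0.33. Beside Mrpl9 and Mrpl1, the strongest changes in this class were decreases of Mrpl36, a small zinc-binding protein of the large subunit, at 10.0 ± 1.64 CPM with IL-1β and 17.8 ± 0.39 CPM in control (SD, n = 3 each; log2 -0.83 ± 0.11 SE, adjusted p = 2.48e-07), and Mrpl55, at 6.28 ± 1.88 CPM with IL-1β and 10.6 ± 1.4 CPM in control (SD, n = 3 each; log2 -0.75 ± 0.16 SE, adjusted p = 0.000124). The span of Mrpl36 meets that of Ndufs6 on the opposite strand, and the sources used here do not say how the authors' counting treated strand. Among the 20 tested mitochondria-specific proteins of the large subunit, 10 rose and 6 fell, with a median of 0.09. That median changed sign to -0.06 with upper-quartile factors, when 7 rose and 9 fell. Mrpl51, of this class, fell to 19.2 ± 0.67 CPM with IL-1β, against 31.9 ± 2.14 CPM in control (SD, n = 3 each; log2 -0.73 ± 0.08 SE, adjusted p = 2.47e-09).

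Of the 16 small-subunit proteins with a bacterial homologue, 4 rose with IL-1β and 7 fell, with a median log2 fold change of -0.22, and with upper-quartile factors 3 rose and 10 fell, with a median of -0.37. Mrps9, which lies in the head of the small subunit, had 28.2, 30.5 and 29.9 CPM with IL-1β, against 16.7, 17.5 and 17.3 CPM in control (log2 0.78 ± 0.08 SE, adjusted p = 7.44e-10). It thus rose in a class whose larger changes, those of Mrps28 and Mrps16, were decreases. Of the 10 mitochondria-specific proteins of the small subunit, 6 rose and 2 fell, with a median of 0.33, which was 0.18 with upper-quartile factors, when 5 rose and 4 fell. The 6 included Mrps35 (log2 0.69 ± 0.10 SE, adjusted p = 1.84e-06), Mrps22 (log2 0.58 ± 0.10 SE, adjusted p = 1.22e-05) and Mrps33 (log2 0.58 ± 0.09 SE, adjusted p = 1.88e-06). Mrps35 had 19.3 ± 3.22 CPM with IL-1β and 12.0 ± 0.63 CPM in control, Mrps22 had 13.8 ± 0.90 CPM with IL-1β and 9.23 ± 0.21 CPM in control, and Mrps33 had 18.6 ± 1.03 CPM with IL-1β and 12.5 ± 0.88 CPM in control (SD, n = 3 each). The 2 that fell were Mrps34 (log2 -0.80 ± 0.09 SE, adjusted p = 1.08e-08) and Mrps26 (log2 -0.61 ± 0.09 SE, adjusted p = 1.05e-06). Mrps34 is known to be needed for a stable small subunit. Its whole span lies within that of Mapk8ip3 on the opposite strand, which held 24641 counts against 3212 for Mrps34, and the part of this overlap in its values was not tested.

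Neighbouring proteins of one substructure did not share a direction. Around the exit of the nascent chain, Mrpl45 rose while 4 of the other 5 genes fell, among them Mrpl17 (39.4 ± 2.07 CPM with IL-1β and 64.8 ± 4.3 CPM in control, SD, n = 3 each; log2 -0.72 ± 0.06 SE, adjusted p = 4.56e-11) and Mrpl23 (12.6 ± 1.32 CPM with IL-1β and 20.6 ± 0.39 CPM in control, SD, n = 3 each; log2 -0.71 ± 0.09 SE, adjusted p = 1.12e-07). Of the 3 proteins of the stalk that recruits translation factors, Mrpl12 fell (log2 -0.42 ± 0.08 SE, adjusted p = 7.28e-05). Mrpl10 (log2 0.14, adjusted p = 0.0435) and Mrpl11 (log2 0.24, adjusted p = 0.0301) passed the test as higher, but neither did so in several of the fits that left out 1 library, with adjusted p of 0.0789 to 0.156 and 0.0516 to 0.151, and the direction of Mrpl10 reversed with upper-quartile factors. Of 8 proteins of the central protuberance, which faces the small subunit, 2 rose and 2 fell, and with upper-quartile factors 1 rose and 5 fell. Mrpl48, whose span meets that of Rab6a, a gene with more counts on the opposite strand, rose (log2 0.38 ± 0.07 SE, adjusted p = 1.57e-05), and Mrpl38 passed with an adjusted p of 0.0351 that was 0.0888 to 0.109 without control replicate 2, control replicate 3 or IL-1β replicate 2.

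The members Mrps18a, Mrps18b and Mrps18c encode related proteins at different places. Mrps18a, which belongs to the large subunit, rose to 20.9 ± 1.46 CPM with IL-1β, against 14.4 ± 0.84 CPM in control (SD, n = 3 each; log2 0.55 ± 0.09 SE, adjusted p = 2.68e-06). Mrps18b, a protein of the small subunit, rose to 22.6 ± 0.13 CPM with IL-1β, against 17.8 ± 1.73 CPM in control (SD, n = 3 each; log2 0.35 ± 0.08 SE, adjusted p = 0.000506). Mrps18c, also of the small subunit, had 4.68, 8.48 and 7.57 CPM with IL-1β and 6.87, 8.22 and 7.67 CPM in control, with overlapping groups and no call (log2 -0.14 ± 0.17 SE, adjusted p = 0.487). Mrps36, now known as a component of the 2-oxoglutarate dehydrogenase complex and given no place in the ribosome here, fell to 7.52 ± 0.76 CPM with IL-1β, against 10.1 ± 0.71 CPM in control (SD, n = 3 each; log2 -0.42 ± 0.13 SE, adjusted p = 0.00556).

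The 18 members not called with IL-1β had log2 fold changes between -0.24 and 0.08. They were Mrpl16, Mrpl19, Mrpl21, Mrpl27, Mrpl33, Mrpl35, Mrpl40, Mrpl44, Mrpl46, Mrpl47, Mrpl58, Mrps5, Mrps6, Mrps11, Mrps12, Mrps18c, Mrps23 and Mrps25. Mrpl58, known also as ICT1, is a peptidyl-tRNA hydrolase that frees stalled chains and is built into the large subunit. It had 13.7, 13.8 and 10.7 CPM with IL-1β and 12.8, 16.0 and 14.8 CPM in control, with overlapping groups (log2 -0.20 ± 0.12 SE, adjusted p = 0.113). Mrpl46 and Mrps11 lie head to head on opposite strands with overlapping spans, and neither was called. A missed threshold does not show that these genes did not differ.

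Adding SFRP5 to IL-1β changed few of the members and by small amounts. Relative to IL-1β alone, 5 rose and 5 fell, 13.0% of the tested members, whereas 31.3% of all tested genes were called. Members that rose and members that fell were 6.49% each, against 15.6% and 15.7% of all genes. None of the members was called with a change of at least 2-fold, whereas 4.12% of all genes were, 2.21% as higher and 1.91% as lower. The libraries of the 2 groups did not overlap in 19 members (24.7%) and in 40.8% of all genes. The median log2 fold change was -0.03 for the members and 0.01 for all genes.

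The 5 that rose with SFRP5 were all among those that were lower with IL-1β than in control, and the comparisons share the IL-1β libraries, so their values are given side by side. Mrps28 had 6.26, 7.16 and 6.49 CPM with IL-1β and SFRP5, against 5.10, 4.24 and 4.90 CPM with IL-1β (log2 0.48 ± 0.14 SE, adjusted p = 0.00826). Mrpl57 had 14.4, 13.3 and 12.2 CPM with IL-1β and SFRP5, against 9.78, 10.8 and 8.37 CPM with IL-1β (log2 0.47 ± 0.11 SE, adjusted p = 0.00192). Both genes, like the other members of these 5, stayed below every control library with IL-1β and SFRP5. All 5 were called lower than in control in that comparison. The call of Mrps26 against control was lost without control replicate 2 (adjusted p = 0.0736) or SFRP5 replicate 2 (0.105). Mrps34 had 18.1, 21.1 and 17.6 CPM with IL-1β and SFRP5, against 15.3, 13.9 and 13.2 CPM with IL-1β (log2 0.42 ± 0.09 SE, adjusted p = 0.00106). Mrps26 had 20.0, 18.6 and 22.0 CPM with IL-1β and SFRP5, against 13.9, 17.4 and 15.9 CPM with IL-1β (log2 0.36 ± 0.09 SE, adjusted p = 0.00369). In all 4 genes the lowest library with SFRP5 was above the highest with IL-1β alone. Mrpl23, which lines the nascent chain exit, had 15.4, 15.1 and 17.0 CPM with IL-1β and SFRP5, against 13.5, 13.3 and 11.1 CPM with IL-1β (log2 0.33 ± 0.10 SE, adjusted p = 0.00942). Its call was lost without IL-1β replicate 3 (adjusted p = 0.0705) and without SFRP5 replicate 3 (adjusted p = 0.0515).

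Of the 5 that fell with SFRP5, Mrpl9, Mrpl1, Mrpl45 and Mrps35 were higher with IL-1β than in control. These 4 were still called higher than in control with IL-1β and SFRP5. Mrpl9 had 43.6, 40.9 and 37.3 CPM with IL-1β and SFRP5, against 44.7, 51.8 and 50.2 CPM with IL-1β (log2 -0.27 ± 0.07 SE, adjusted p = 0.00488). Its groups did not overlap, and its call held whichever library was left out. Mrps35 had 15.2, 15.3 and 16.2 CPM with IL-1β and SFRP5, against 19.0, 16.2 and 22.6 CPM with IL-1β (log2 -0.31 ± 0.10 SE, adjusted p = 0.0235). Mrpl1 had 21.2, 19.9 and 19.5 CPM with IL-1β and SFRP5, against 26.1, 21.2 and 24.5 CPM with IL-1β (log2 -0.24 ± 0.09 SE, adjusted p = 0.0338). Mrpl45 had 67.4, 71.4 and 61.9 CPM with IL-1β and SFRP5, against 78.0, 78.4 and 69.9 CPM with IL-1β (log2 -0.17 ± 0.06 SE, adjusted p = 0.0212). In these 3 genes the groups overlapped. Mrpl33, a protein of the large subunit, was not called with IL-1β and had 23.5, 22.9 and 27.0 CPM with IL-1β and SFRP5, against 30.2, 27.5 and 28.0 CPM with IL-1β (log2 -0.22 ± 0.07 SE, adjusted p = 0.0245).

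Apart from that of Mrpl9, the decreases with SFRP5 lost their calls when single libraries were left out. The call of Mrps35 was lost without IL-1β replicate 3 (adjusted p = 0.229), SFRP5 replicate 1 (0.0748) or SFRP5 replicate 2 (0.0596). That of Mrpl1 was lost without IL-1β replicate 1 (adjusted p = 0.178), IL-1β replicate 3 (0.0925), SFRP5 replicate 2 (0.0831) or SFRP5 replicate 3 (0.104). That of Mrpl45 was lost without IL-1β replicate 1 (adjusted p = 0.0896), IL-1β replicate 2 (0.107), SFRP5 replicate 1 (0.0515) or SFRP5 replicate 3 (0.142), and that of Mrpl33 without IL-1β replicate 1 (0.109), SFRP5 replicate 1 (0.109) or SFRP5 replicate 2 (0.102). DESeq2 called 2 members lower with SFRP5 in place of 5, and fits without SFRP5 replicate 1 or SFRP5 replicate 2 also called 2.

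Relative to control, cells with IL-1β and SFRP5 had 23 members that rose and 35 that fell, 75.3% of those tested, whereas 76.3% of all tested genes were called. Members that rose were 29.9%, against 37.3% of all genes, and members that fell 45.5%, against 39.0%. The members' share of calls was again close to that of all genes. A change of at least 2-fold was called in 4 members (5.19%; 1 higher and 3 lower), against 36.2% of all genes (17.2% higher and 19.0% lower). The groups did not overlap in 59 members (76.6%) and in 78.2% of all genes. The median log2 fold change was -0.15 for the members and -0.02 for all genes. With upper-quartile factors, 15 members rose and 43 fell, and the median of all genes moved to -0.16.

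By class, in cells with IL-1β and SFRP5 relative to control, 6 of the 30 large-subunit proteins with a bacterial homologue rose and 16 fell, and of the 20 specific to mitochondria 9 rose and 6 fell. Of all tested genes, 37.3% rose and 39.0% fell in this comparison. In the small subunit, 4 of the 16 with a bacterial homologue rose and 8 fell, and of the 10 specific to mitochondria 4 rose and 4 fell. With upper-quartile factors, 4 rose and 19 fell of the bacterial class and 6 rose and 7 fell of the mitochondria-specific class in the large subunit. In the small subunit, 3 rose and 12 fell of the bacterial class and 2 rose and 4 fell of the mitochondria-specific class with those factors. DESeq2 called 4 of the mitochondria-specific proteins of the small subunit higher and 1 lower.

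The 4 members with a change of at least 2-fold were Mrpl45, which was 2.87-fold higher than in control (log2 1.52 ± 0.06 SE, adjusted p = 2.55e-17), and 3 that were lower, Mrps16 (log2 -1.29 ± 0.09 SE, adjusted p = 6.5e-13), Mrps28 (log2 -1.27 ± 0.11 SE, adjusted p = 1.99e-10) and Mrpl41 (log2 -1.13 ± 0.15 SE, adjusted p = 2.17e-07). Mrps16 had 10.5, 12.2 and 11.9 CPM with IL-1β and SFRP5, against 26.9, 28.5 and 28.9 CPM in control. Mrpl41 had 5.52, 4.23 and 6.08 CPM with IL-1β and SFRP5, against 10.6, 11.7 and 12.6 CPM in control. Neither gene was called between IL-1β with SFRP5 and IL-1β alone, where their log2 fold changes were 0.03 and -0.09. Among the other members with the largest increases were Mrps30 (log2 0.89 ± 0.08 SE, adjusted p = 1.28e-10), Mrps9 (log2 0.82 ± 0.08 SE, adjusted p = 3.42e-10) and Mrpl14 (log2 0.49 ± 0.12 SE, adjusted p = 0.000589). Mrpl14 had 15.9, 21.7 and 14.3 CPM with IL-1β and SFRP5, against 13.0, 12.5 and 11.2 CPM in control, so that replicate 2 with SFRP5 stood above the others of its group. Its span meets that of Tmem63b, a gene with more counts on the opposite strand.

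Across the 3 comparisons, 19 members were higher than in control both with IL-1β alone and with IL-1β and SFRP5 and were not called between those 2 groups, and 25 were lower in both in the same way. The share of all tested genes in these and the following patterns was not computed. Against the shared control, 78.9% of all genes were called with IL-1β alone and 76.3% with IL-1β and SFRP5. No conclusion about the members is drawn from the pattern counts. In none of the 3 comparisons were 13 members called. Another 4 members, Mrpl35, Mrps6, Mrps23 and Mrps25, were called lower than in control with IL-1β and SFRP5 and not with IL-1β alone, but none of them was called between IL-1β with SFRP5 and IL-1β alone (adjusted p from 0.16 to 0.445). In the opposite pattern, Mrpl10, Mrpl11, Mrpl37, Mrps18b and Mrps31 were called higher and Mrpl30 lower than in control with IL-1β alone and none of these 6 with IL-1β and SFRP5, and they too were not called between IL-1β with SFRP5 and IL-1β alone (adjusted p from 0.0601 to 0.799). Without single libraries, Mrps23 and Mrps25 lost the call against control, with adjusted p of 0.0811 to 0.138 and 0.0511 to 0.168. In other such fits, Mrpl37 (adjusted p 0.0191 to 0.0427), Mrps18b (0.0319 and 0.044) and Mrpl30 (0.0303) gained the call against control with IL-1β and SFRP5. Mrpl30 also lost its call with IL-1β alone in several fits (adjusted p 0.0573 to 0.339), as did Mrpl10 and Mrpl11. This opposite pattern is thus not firm.

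The levels of the members per length of gene differed widely in control cells. The 5 highest in CPM per kilobase of the gene length given in the table were Mrpl54 at 38.7 ± 1.26, Mrpl24 at 27.6 ± 0.90, Mrps21 at 26.1 ± 0.43, Mrpl10 at 22.4 ± 0.11 and Mrpl2 at 21.8 ± 2.16 (SD, n = 3). Mrpl10 and Mrpl2 did not differ beyond their spread, and neither did Mrpl2 and the next 3, Mrpl34 at 21.5 ± 0.77, Mrpl52 at 21.4 ± 2.68 and Mrpl27 at 20.6 ± 1.41, so the last place among the 5 is not settled. The 5 lowest were Mrps35 at 1.39 ± 0.07, Mrps22 at 2.31 ± 0.05, Mrps25 at 2.59 ± 0.31, Mrpl1 at 2.67 ± 0.13 and Mrps9 at 2.98 ± 0.07 (SD, n = 3). Mrps22, Mrps25 and Mrpl1 lay within 1 SD of a neighbour in this order, and Mrpl15 at 3.01 ± 0.15 and Mrps30 at 3.05 ± 0.33 were not separated from Mrps9. The sources used here do not define this length, and a long listed length lowers this level. Of the 5 lowest, 4 rose with IL-1β, against 36.4% of all tested members. The 5 were picked by their level in control, which is also the reference of the change, and by a length that itself went with the change. A rise among them is thus partly built in, and no conclusion is drawn from it. In IL-1β cells Mrpl1 stood at 5.57 ± 0.59 and Mrps9 at 5.13 ± 0.21 CPM per kilobase (SD, n = 3).

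Longer genes among the members tended to have the higher changes with IL-1β. Across the 77 tested members, the log2 fold change with IL-1β relative to control had a Pearson's r of 0.323 with the log2 of gene length and a Spearman's rho of 0.358. The points are genes measured in the same 6 libraries and are not independent replicates. Over 13034 other tested protein-coding genes the same values were -0.02 and 0.036. The 26 shortest members, with a median length of 1165 bases, had a median log2 fold change of -0.29, the 25 in the middle -0.06 and the 26 longest, with a median length of 5606 bases, 0.04. The other protein-coding genes, divided by their own lengths, had medians in the same order. These were -0.096 for the short (median length 2359 bases), -0.046 for the middle and 0.059 for the long genes (8368 bases). The median length was 3074 bases for the members that rose and 1693 bases for those that fell. For IL-1β with SFRP5 relative to control, the members' values of r and rho were 0.283 and 0.302. Between IL-1β with SFRP5 and IL-1β they were -0.269 and -0.304. That comparison shares the IL-1β libraries, with opposite sign, with the one of IL-1β and control, so its negative values are partly built in.

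**Figure D5:**
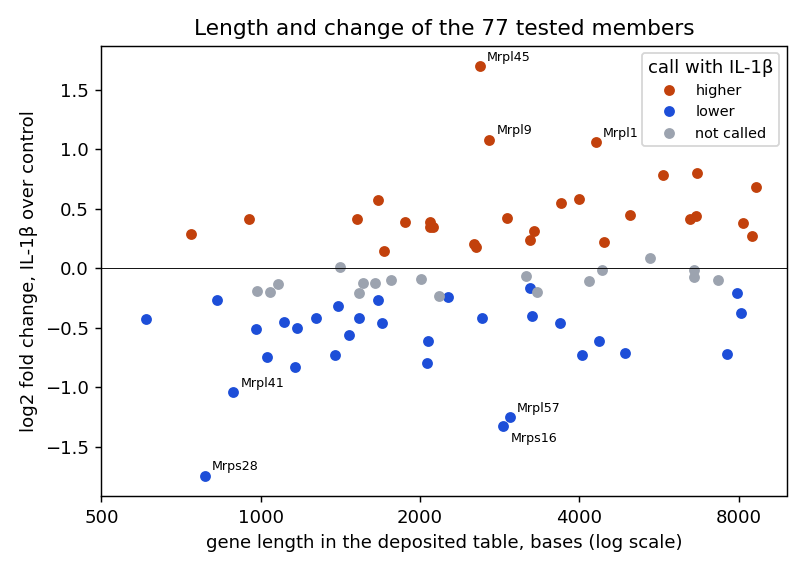
Log2 fold change with IL-1β relative to control (vertical axis) of the 77 tested members against the gene length listed in the table (horizontal axis, bases, log scale); red points rose, blue points fell and grey points were not called. The members that rose have a median length of 3074 bases and those that fell of 1693 bases, with wide overlap.

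The partners of these proteins in mitochondrial translation also moved in both directions with IL-1β. Of 5 mitoribosome proteins with other symbols, Ptcd3 (log2 0.64 ± 0.05 SE, adjusted p = 1.98e-11) and Dap3 (log2 0.54 ± 0.05 SE, adjusted p = 1.43e-09) of the small subunit rose, and Chchd1 of the small subunit fell (log2 -0.50 ± 0.10 SE, adjusted p = 6.04e-05). The counted levels of the RNAs of the ribosome, transcribed from the mitochondrial genome, were lower with IL-1β. These RNAs were in none of the lists and were chosen after their values had been seen. The 12S RNA mt-Rnr1 had 119, 114 and 109 CPM with IL-1β, against 131, 145 and 135 CPM in control (log2 -0.27, adjusted p = 2.32e-05). The 16S RNA mt-Rnr2, of the large subunit, had 99.3, 83.5 and 81.0 CPM with IL-1β, against 222, 225 and 232 CPM in control (log2 -1.37, adjusted p = 2.93e-17). No library of one group reached the other in either RNA. Both RNAs were counted far below mt-Co1, a message of the same genome with a mean of 5209 CPM in control. Whether their counts follow their amounts in the cells was not tested. With SFRP5 beside IL-1β, mt-Rnr2 had 74.4, 75.4 and 68.9 CPM, below each IL-1β library (log2 -0.27, adjusted p = 0.00113), and mt-Rnr1 was not called (log2 -0.08, adjusted p = 0.264).

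Among 30 genes of mitoribosome assembly and rRNA modification, 11 rose and 7 fell with IL-1β, and with upper-quartile factors 10 rose and 13 fell. For this list and those that follow, the background is 38.5% of all tested genes that rose and 40.4% that fell with IL-1β. Afg3l2, a subunit of the inner-membrane protease that matures Mrpl32, had the largest increase, at 337 ± 2.22 CPM with IL-1β and 56.8 ± 0.79 CPM in control (SD, n = 3 each; log2 2.57 ± 0.04 SE, adjusted p = 3.55e-26). Its substrate Mrpl32 rose too (log2 0.45 ± 0.08 SE, adjusted p = 1.86e-05). With IL-1β and SFRP5 Afg3l2 fell to 229 ± 3.56 CPM, against 337 ± 2.22 CPM with IL-1β (SD, n = 3 each; log2 -0.56 ± 0.04 SE, adjusted p = 1.28e-11), and Mrpl32 was not called (log2 -0.03, adjusted p = 0.831). Nsun4, which methylates the 12S RNA and acts in subunit joining, fell with IL-1β to 19.3 ± 2.06 CPM, against 45.0 ± 2.89 CPM in control (SD, n = 3 each; log2 -1.22 ± 0.09 SE, adjusted p = 1.45e-12). Trmt10c, a part of mitochondrial RNase P, rose (log2 1.36 ± 0.08 SE, adjusted p = 3.76e-14).

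Of 17 tested mitochondrial translation factors, 7 rose and 6 fell with IL-1β, and with upper-quartile factors 4 rose and 7 fell. The ribosome recycling factor Mrrf rose (log2 0.87 ± 0.08 SE, adjusted p = 1.27e-10) and Slirp, which stabilizes mitochondrial messages, fell (log2 -1.05 ± 0.10 SE, adjusted p = 6.57e-10). Of 17 mitochondrial aminoacyl-tRNA synthetases, which charge the tRNAs used by this ribosome, 9 rose and 5 fell (7 and 6 with upper-quartile factors), with Nars2 at a log2 fold change of 1.53 (adjusted p = 2.39e-14) and Mars2 at -1.26 (adjusted p = 1.17e-07). Of 10 tested regulators of mitochondrial biogenesis, 5 rose and 2 fell (4 and 3 with upper-quartile factors, 5 and 1 with DESeq2). The largest increase among them was that of Myc, to 87.7 CPM with IL-1β, against 31.3 CPM in control (means, n = 3 each; log2 1.49, adjusted p = 1.67e-16). Nrf1, the factor whose motif was searched above, rose to 39.0 CPM with IL-1β, against 18.2 CPM in control (means, n = 3 each; log2 1.10, adjusted p = 1.92e-12). Pprc1, a coactivator of the PGC-1 family, fell to 14.5 CPM with IL-1β, against 46.1 CPM in control (means, n = 3 each; log2 -1.66, adjusted p = 1.55e-15).

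Of 13 genes of mitochondrial transcription and genome upkeep, 5 rose and 4 fell with IL-1β (3 and 5 with upper-quartile factors), with Mgme1, an exonuclease of mitochondrial DNA, at a log2 fold change of 2.28 (adjusted p = 1.39e-17). Of 19 tested genes of mitochondrial protein import, the route by which the ribosomal proteins reach the matrix, 10 rose and 3 fell (5 and 7 with upper-quartile factors). Hspa9, the matrix chaperone that pulls proteins in, rose (log2 0.99, adjusted p = 8.65e-19), and Timm17b, a channel subunit of the inner membrane, fell (log2 -1.95, adjusted p = 1.16e-14). Between IL-1β with SFRP5 and IL-1β, 1 gene rose and 1 fell in the assembly list and likewise among the translation factors, 2 synthetases rose and 2 fell, 3 regulators of biogenesis rose, 1 gene of transcription and genome upkeep fell, and in protein import 1 gene rose and 5 fell. Of all tested genes, 15.6% rose and 15.7% fell in that comparison.

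The products of this ribosome are the 13 proteins of the mitochondrial genome, 12 of which were tested. With IL-1β 4 of the 12 rose and 6 fell, and with upper-quartile factors 2 rose and 6 fell. Their control levels were very uneven, at 5209 CPM for mt-Co1 but 16.1 CPM for mt-Co2 and 7.97 CPM for mt-Co3. In control mt-Atp6 was at 6.79, mt-Nd3 at 1.81 and mt-Nd4l at 0.94 CPM (means, n = 3). The part of reads shared with other genes in these levels was not tested, so the counts and changes here are less certain. mt-Cytb of complex III was at 2880 CPM with IL-1β and 1995 CPM in control (means, n = 3 each; log2 0.53, adjusted p = 4.82e-11), and mt-Nd2 of complex I at 172 CPM with IL-1β and 750 CPM in control (means, n = 3 each; log2 -2.13, adjusted p = 2.23e-24). Between IL-1β with SFRP5 and IL-1β, 6 of the 12 fell, but 2 or 3 fell without SFRP5 replicate 1 or IL-1β replicate 2. Of all tested genes, 15.7% fell in that comparison.

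The cytosolic ribosome, which makes the mitochondrial ribosomal proteins themselves, was set beside them. With IL-1β, 21 of 78 cytosolic ribosomal protein genes rose and 34 fell, with a median log2 fold change of -0.10, and with upper-quartile factors 9 rose and 49 fell. Between IL-1β with SFRP5 and IL-1β, 31 of the 78 rose and 3 fell, with a median of 0.11, whereas 5 of the 77 mitochondrial ones rose and 5 fell and, of all tested genes, 15.6% rose and 15.7% fell. The number of cytosolic ones that rose was 20 without SFRP5 replicate 2 and 53 with library totals and no TMM factors (median 0.19), and 6 fell without IL-1β replicate 3. These genes have many processed copies, and the sources used here do not say how such reads were divided, so their values are less certain. The difference between both sets of genes was not tested.

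Where genes overlap, the counts may mix. In the table, the spans of 28 members meet that of another gene with at least 50 counts on the opposite strand, and those of 5 members meet one on the same strand. Among the tested members, Mrpl14, Mrpl18, Mrpl36, Mrpl43, Mrpl47, Mrpl48, Mrpl49, Mrps11, Mrps25 and Mrps34 meet a gene on the opposite strand with more counts than their own, and Mrps6 and Mrps24 meet such a gene on the same strand. Mrpl18 meets Tcp1 with 60856 counts over the 9 libraries against 3932 for Mrpl18. Mrpl48 meets Rab6a with 39095 counts against 5673 for Mrpl48, and Mrpl14 meets Tmem63b with 9657 counts against 2478 for Mrpl14. Overlaps with genes of few counts include that of Mrpl9, which meets Oaz3 with 136 counts over the 9 libraries against 6040 for Mrpl9, and Mrps30, which meets the non-coding B430218F22Rik with 233 counts against 5030 for Mrps30. Mrpl43 meets Twnk, the mitochondrial DNA helicase, and both rose with IL-1β (Mrpl43 log2 0.42 ± 0.07 SE, adjusted p = 7.21e-06; Twnk log2 1.03, adjusted p = 8.78e-14). The part of shared reads in these values was not tested.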

How the data were processed

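The authors deposited raw gene counts as whole numbers, 1 table for 9 libraries. Per the submitters' processing notes, fastp, STAR, RSEM and mm10 were used, with no versions. RSEM shares out reads that fit more than 1 gene, and the sources used here do not say how its estimates became whole counts. No coordinates of the table are printed, since the sources used here name no annotation release. Column names gave each sample by a letter and a digit; those of the SFRP5 columns hold further digits without an explanation in the labels.

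Levels are CPM relative to library sizes scaled by TMM factors. Each comparison came from 1 fit of edgeR 4.0.16 (R 4.3.3; quasi-likelihood test, filterByExpr, 1 mean per group, 9 libraries), adjusted over 15502 genes by the Benjamini-Hochberg method and called at 0.05. The standard error was derived from the change and its F statistic. The common biological coefficient of variation was 4.97%. The procedure was tested on simulated counts in which few genes were changed, in the IL-1β group only. It thus does not test the scaling where most genes are called, as in these data. Alternatives were DESeq2 1.42.0, upper-quartile and RLE factors, no low-count filter, robust dispersion, only the 6 libraries compared, each library left out and a replicate block; library totals without TMM factors were added after seeing the data. Pairs of libraries of 1 group differed by more than counting noise (chi-square per gene 2.19 to 4.65).

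The members, the lists of other genes and the motifs were chosen with earlier results of these data known. The text names the 8 called members with the largest changes in each direction and comparison, the 5 highest and lowest levels per length, members not called with IL-1β, and the 2 most changed genes of a list in each direction, of which some are left out for length.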

Additional observations from a re-analysis of the deposited data

How the results depend on the processing

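Scaling moved the balance of calls most. With upper-quartile factors the members' median log2 fold change was -0.27 for IL-1β relative to control and -0.28 for IL-1β with SFRP5 relative to control, where 15 members rose. With library totals and no TMM factors, an alternative chosen after seeing the data, 14 members rose with IL-1β (median -0.37) and 13 with IL-1β and SFRP5 relative to control (median -0.31); between IL-1β with SFRP5 and IL-1β, 8 members rose and 1 fell (median 0.052), and 1567 of all genes fell. The median of all genes was then -0.28, -0.19 and 0.09 in these 3 comparisons. Mrpl10 with IL-1β reversed to -0.006 with upper-quartile factors and to -0.10 without TMM factors. DESeq2 called 2 members lower between IL-1β with SFRP5 and IL-1β. The cause was not tested. With single libraries left out, the members higher and lower numbered 24 to 28 and 30 to 34 for IL-1β relative to control, 4 to 7 and 2 to 5 for IL-1β with SFRP5 relative to IL-1β, and 21 to 25 and 30 to 36 for IL-1β with SFRP5 relative to control. No pairing by replicate number was seen: deviations of same-numbered libraries from their group means had correlations from -0.036 to 0.04, and the replicate block left the counts of members at 28 and 31, 5 and 5, and 23 and 35. These values cannot show whether same-numbered libraries shared an animal or culture. Of 2346 values of single named members under alternatives, 2239 kept their direction and side of the threshold or changed sign with no call in either fit (82), 50 lost the call, 55 gained it and 2 reversed. Of 1632 counts of calls in lists, 173 moved by over 1.5 times. Depth limits the members with few counts, such as Mrps18c.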
